A study of Mus musculus with 16 samples.

Results

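The comparison set 4 libraries of mouse epicardial cells treated with TGFB2 against 4 libraries treated with TGFB1, which are 8 of the 16 libraries of the series. The libraries were chosen by their treatment labels, and all genes in the deposited tables entered. The cells were 2 immortalized lines, 1 for each genotype, so that genotype and line cannot be told apart. The wt line was Tgfbr3+/+ and the mt line Tgfbr3-/-. Both carried the Immorto T antigen, came from a C57BL/6 SV129 mixed background and were isolated at E11.5, the embryonic stage in the labels. The T antigen was active during growth at 33 °C and inactive at the 37 °C of the experiment. Each ligand was given at 250 pM for 72 h, and each line and ligand had 2 libraries, with the replicate numbers 1 and 2. Vehicle libraries of both lines served to define which genes respond to TGF-beta at all, and BMP2 libraries of the series were not part of the ligand comparison. Nothing in the labels says whether replicates came from separate cultures, so p-values measure the spread between these libraries, which may be technical.

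TGFB1 and TGFB2 are closely related dimeric growth factors. Both signal through the kinase receptors TGFBR2 and TGFBR1 to the transcription factors SMAD2 and SMAD3. TGFB2 binds TGFBR2 weakly by itself and is presented to it by the co-receptor TGFBR3 (betaglycan), whereas TGFB1 binds TGFBR2 directly. Epicardial cells exposed to either ligand are known to lose epithelial character and to take on mesenchymal and smooth muscle features. The comparison therefore asks whether the same dose of each ligand left a different transcriptome, averaged over a line with and a line without the co-receptor.

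The 8 libraries held between 12990928 and 31813921 reads. Tgfbr3 lay between 32.5 and 57.6 counts per 1e+06 reads (CPM) in the 4 wt libraries and between 10.4 and 12.8 CPM in the 4 mt libraries, so the line labels and the targeted gene go together, although reads of the gene remained in the mt line. No transcript marks which ligand had been added, so the ligand labels themselves could not be checked. The defining epicardial genes Wt1, Tbx18 and Tcf21 were present in every library, at 64.8 to 80.8 CPM, 33.2 to 54.5 CPM and 34.0 to 257 CPM. Gata5 had at most 7 reads in each of the 8 and did not pass the filter, but stood at 4.05 to 12.3 CPM in the vehicle libraries. Some libraries stood apart by transcripts of other tissues, and the kidney, globin and adrenal lists used here were chosen after seeing the values. In wt TGFB1 replicate 1, a list of 16 kidney epithelial genes summed to 36.7 CPM, against 5.40 CPM in wt TGFB2 replicate 1. The list summed to 7.11 to 8.81 CPM in the mt replicate 1 libraries and 0.80 to 1.32 CPM in the replicate 2 libraries. Globin transcripts followed the same order, with 19.4 CPM in wt TGFB1 replicate 1, 2.06 CPM in wt TGFB2 replicate 1, 6.68 and 6.73 CPM in the mt replicate 1 libraries and at most 0.13 CPM in replicate 2, and a list of 11 adrenal genes summed to 11.4 CPM in that library against 2.19 to 4.70 CPM in the others. Both mt replicate 1 libraries also held cardiac Myh6 reads, 387 with TGFB1 and 320 with TGFB2, against 4 to 12 in the other 6. The part of these transcripts in the ligand difference was not tested, and the main counts are given below with and without the libraries concerned.

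No gene passed the test between the ligands. Of 16482 genes tested by edgeR with line and replicate number as terms, 0 were called (0%) at an adjusted p of 0.05, and the smallest adjusted p was 0.894. At an unadjusted p under 0.05 there were 785 genes, 450 of them higher with TGFB2 (2.73%) and 335 lower (2.03%). This number was 300 without wt TGFB1 replicate 1, 316 without the wt replicate 1 pair and 449 without the mt replicate 1 pair, and single left-out libraries moved it from 268, without wt TGFB2 replicate 1, to 3033, without mt TGFB1 replicate 2. DESeq2 likewise called 0 genes, with 609 at an unadjusted p under 0.05 and a smallest adjusted p of 0.065, and limma-voom called 0, with 759. By contrast, the pooled response of both ligands against vehicle, in which each ligand had equal weight, called 9080 of 16835 genes, of which 4554 rose (27.1%) and 4526 fell (26.9%).

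The pooled sizes were small as well as uncalled. The median absolute difference between the ligands was 0.11 on the log2 scale, and 0.09 among the 12243 genes averaging 5 CPM or more. Within single pairs it was larger at that level, at 0.21 and 0.12 in wt replicates 1 and 2 and 0.17 and 0.14 in mt replicates 1 and 2. The pooled difference averages pairs that can differ in sign. The 95% interval of the difference lay within 1.5-fold in either direction for 12550 of the genes tested (76.1%) and within 2-fold for 15458 (93.8%). At a mean of at least 5 CPM these shares were 93.2% and 99.6%. Above that level 2 genes had a fitted difference beyond 2-fold, the RNA components of RNase MRP and RNase P, Rmrp and Rpph1, which were noticed after their values were seen. Rmrp differed by -4.95, -0.41, -1.87 and 0.91 on the log2 scale in the wt replicate 1, wt replicate 2, mt replicate 1 and mt replicate 2 pairs, and its interval ran from -5.21 to 2.19. A p that misses the threshold does not show that the ligands act alike, and the intervals give the size of difference that these libraries leave possible.

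**Figure D1:**
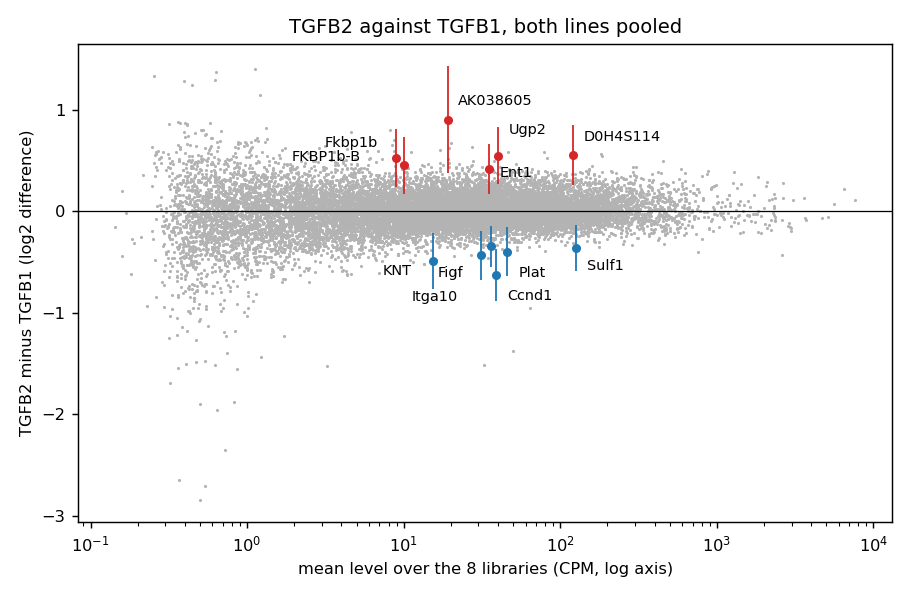
Each grey point is 1 of 16482 genes, with the mean level over the 8 libraries in CPM on a log axis and the TGFB2 minus TGFB1 difference on the log2 scale. Coloured points with 95% intervals are the 12 named genes with the smallest p that had the same sign in all 4 pairs, 6 higher with TGFB2 (red) and 6 lower (blue); none of the 16482 passed the adjusted threshold.

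Most core components of the pathway had fitted differences near 0 between the ligands. Tgfbr1 had a larger one, which was not called. Tgfbr2, the type II receptor that binds ligand, stood at 110, 115, 115 and 110 CPM with TGFB1 in wt replicates 1 and 2 and mt replicates 1 and 2, and at 112, 113, 115 and 113 CPM with TGFB2 in the same order. Its log2 difference was -0.00 ± 0.09 (SE; 95% interval -0.19 to 0.18). The 8 values overlapped throughout and lay below the 133 to 227 CPM of the vehicle libraries. Tgfbr1, the type I receptor kinase, had 37.1, 47.7, 48.0 and 82.8 CPM with TGFB1 and 67.4, 61.4, 71.0 and 71.7 CPM with TGFB2. It was higher with TGFB2 in 3 pairs and lower in the mt replicate 2 pair. There the TGFB1 library had the highest level of the 8. The fitted Tgfbr1 difference was 0.38 ± 0.15 (95% interval 0.06 to 0.70, adjusted p 0.894). Without the mt replicate 2 pair, left out after seeing the data, it was 0.59. The co-receptor Tgfbr3 differed by -0.05 ± 0.13 and the endothelial-type co-receptor Eng (endoglin) by -0.16 ± 0.12. Among 9 tested members of the receptor list, 1 was higher and 1 lower at an unadjusted p under 0.05, namely Tgfbr1 and the activin receptor Acvr2b, the latter below 1 CPM in all 8 libraries. Without the wt replicate 1 pair 0 members were higher and 1 lower, and without the mt replicate 1 pair 0 and 0.

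The cells' own ligand genes gave differences of -0.01 ± 0.09 for Tgfb1, 0.08 ± 0.11 for Tgfb2 and 0.17 ± 0.12 for Tgfb3. Of 13 tested ligand and latent binding protein genes and of 15 Smad and feedback genes, none reached an unadjusted p under 0.05. Smad7, the inhibitory Smad that TGF-beta induces as feedback, differed by 0.12 ± 0.09, and Skil, a corepressor of SMAD3, by 0.11 ± 0.10. Pmepa1, a feedback target that rose by 3.09 on the log2 scale in the pooled response, differed between the ligands by -0.04 ± 0.12 (95% interval -0.28 to 0.21).

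Among 32 TGF-beta and SMAD3 target genes, 27 of which rose in the pooled response, 2 were higher with TGFB2 and 0 lower at an unadjusted p under 0.05, and 0 were called. The median difference over the list was 0.05, against -0.00 over all genes tested. Without the wt replicate 1 pair 0 members reached an unadjusted p under 0.05, and the median was 0.05. Ctgf, a matricellular protein gene, differed by 0.02 ± 0.14, with its 4 pairs on both sides of 0. Nox4, an NADPH oxidase, had 0.65 to 2.57 CPM with TGFB1 and 1.32 to 3.03 CPM with TGFB2, a difference of 0.62 ± 0.25 (unadjusted p 0.0294, adjusted p 0.894) with all 4 pairs higher. Has2, which makes hyaluronan in the matrix that migrating epicardial cells enter, had 39.6, 67.7, 38.7 and 89.5 CPM with TGFB1 and 53.6, 83.1, 56.1 and 85.7 CPM with TGFB2. The mt replicate 2 pair was again the exception to 3 higher pairs, and the difference was 0.29 ± 0.11 (adjusted p 0.894).

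Of 23 tested smooth muscle contractile genes, 16 lay below 0 (69.6%, against 51.3% of all genes), with a median of -0.07, though the best known of them differed in direction. Acta2, smooth muscle actin, had 2880, 1956, 2507 and 2686 CPM with TGFB1 and 3037, 2111, 2762 and 3109 CPM with TGFB2, a difference of 0.13 ± 0.14 with all 4 pairs higher. Cnn1, calponin, differed by 0.19 ± 0.12 and Tagln, transgelin, by -0.20 ± 0.15. In the list 0 were higher and 2 lower at an unadjusted p under 0.05, the intermediate filament gene Des at -0.31 ± 0.12 and the smooth muscle myosin gene Myh11 at -0.55 ± 0.25. For Myh11, wt TGFB1 replicate 1 (3.24 CPM) and mt TGFB1 replicate 1 (2.79 CPM) were the highest libraries, and the replicate 2 libraries lay between 0.955 and 1.17 CPM with both ligands. Without the wt replicate 1 or the mt replicate 1 pair, 0 contractile genes reached an unadjusted p under 0.05.

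Epicardial and mesothelial genes leaned lower with TGFB2, and of 25 tested members 20 fell in the pooled response. Between the ligands 18 of the 25 lay below 0 (72%), against 51.3% of all genes. The share was 64.6% among all genes that fell with TGF-beta and 75.2% among those that fell at least 4-fold. The lean was therefore not particular to this list, whose median was -0.10. At an unadjusted p under 0.05, 0 members were higher and 5 lower, where 2.73% and 2.03% of all genes were. Without the wt replicate 1 pair 1 was higher and 2 lower, without the mt replicate 1 pair 1 and 1, with 18 of the 25 below 0 in each case. Upk3b, a uroplakin of the mesothelial surface, had 249, 291, 158 and 184 CPM with TGFB1, 234, 269, 112 and 151 CPM with TGFB2 and 1190 to 1550 CPM in vehicle. It was lower with TGFB2 in all 4 pairs, with log2 differences from -0.49 to -0.08, and the groups overlapped across lines. Msln, the mesothelial surface protein mesothelin, differed by -0.26 ± 0.11, also lower in all 4 pairs. The transcription factors Wt1 (-0.10 ± 0.10), Tbx18 (0.06 ± 0.10) and Tcf21 (-0.01 ± 0.12) had pairs on both sides of 0. In these bulk libraries fewer epicardial cells and less RNA per cell cannot be told apart.

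**Figure D2:**
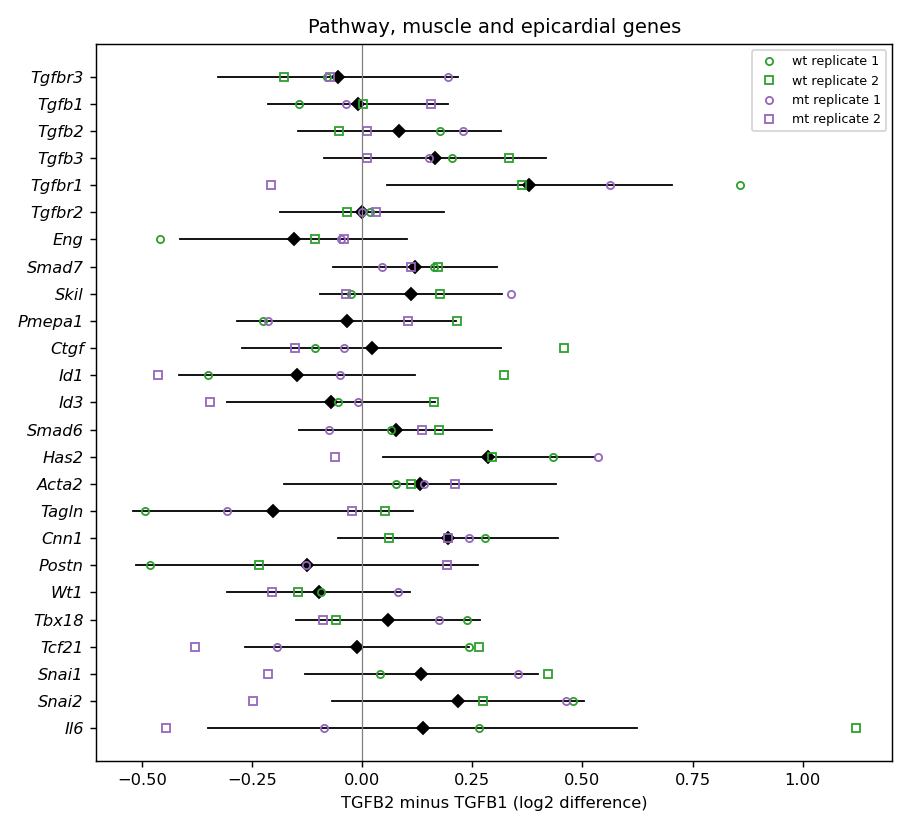
Black diamonds give the pooled TGFB2 minus TGFB1 log2 difference and black lines its 95% interval for 25 pathway, smooth muscle and epicardial genes, and open symbols give the 4 pairs of libraries. Most intervals span 0; Tgfbr1 and Has2 lie above it with the mt replicate 2 pair below 0, and none passed the adjusted threshold.

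Among 17 tested BMP target genes, of which 11 fell in the pooled response, 0 were higher and 2 lower at an unadjusted p under 0.05. In all 4 pairs, 4 members were lower with TGFB2 (23.5%, against 6.16% of all genes). That share was 9.79% among all genes that fell with TGF-beta and 22.4% among those that fell at least 4-fold. Atoh8, a helix-loop-helix factor induced by BMP, had 21.9, 28.2, 3.82 and 3.63 CPM with TGFB1 and 17.2, 23.3, 2.52 and 2.96 CPM with TGFB2, from 77.1 to 161 CPM in vehicle. Every pair was lower with TGFB2, by -0.35 ± 0.13 in the fit, while the lines differed far more than the ligands. Msx1, a homeobox gene, differed by -0.38 ± 0.16. The classical targets Id1 (-0.15 ± 0.12), Id3 (-0.07 ± 0.11) and Smad6 (0.08 ± 0.10) did not have 4 pairs on 1 side.

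The smallest p of all genes belonged to Ccnd1, cyclin D1, the regulatory subunit that drives cells through the G1 phase (chromosome 7, 152115835 to 152125830, build mm9). It had 51.8, 60.4, 42.0 and 33.7 CPM with TGFB1 and 35.4, 42.9, 20.7 and 24.8 CPM with TGFB2, from 76.1 to 475 CPM in vehicle. Each TGFB2 library was below its TGFB1 partner, and within each line the ligands did not overlap. The difference was -0.63 ± 0.12, that is 1.54-fold higher with TGFB1, with an unadjusted p of 0.000132 and an adjusted p of 0.894. Ccnd1 fell by 2.21 on the log2 scale in the pooled response.

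Among the next genes lower with TGFB2 in all 4 pairs, several also fell with TGF-beta against vehicle. Figf, which encodes the lymphangiogenic factor VEGF-D, had 47.2, 57.2, 15.2 and 23.0 CPM with TGFB1 and 27.2, 47.1, 11.6 and 19.2 CPM with TGFB2, against 104 to 136 CPM in vehicle. Sulf1, an extracellular sulfatase that edits heparan sulfate, had 200, 150, 125 and 101 CPM with TGFB1 and 127, 118, 96.6 and 95.6 CPM with TGFB2. Plat, tissue plasminogen activator, had 58.1, 67.8, 42.3 and 41.0 CPM with TGFB1 and 36.5, 50.9, 31.4 and 39.2 CPM with TGFB2. Their differences were -0.44 ± 0.11, -0.36 ± 0.10 and -0.40 ± 0.11, each with an adjusted p of 0.894, and in each gene the ligand groups overlapped across lines. Itga10, a collagen-binding integrin subunit that rose by 0.91 in the pooled response, differed by -0.35 ± 0.09, and an entry named KNT by -0.49 ± 0.13.

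Among genes higher with TGFB2 in all 4 pairs, Ugp2, which makes the UDP-glucose used for glycogen and glycosaminoglycans, had 16.9, 31.4, 35.5 and 49.9 CPM with TGFB1 and 36.9, 39.6, 50.3 and 61.5 CPM with TGFB2. Its difference was 0.55 ± 0.13 (adjusted p 0.894), and vehicle libraries spanned 19.4 to 67.8 CPM, so it varied as much without a ligand. An uncharacterized transcript, AK038605, differed by 0.90 ± 0.24, and its entry overlaps the start of Ugp2 on chromosome 11, so reads of the overlap may be counted for both. D0H4S114, which RefSeq lists as a synonym of Nrep, had 56.3, 140, 74.6 and 128 CPM with TGFB1 and 120, 189, 108 and 147 CPM with TGFB2. The difference was 0.55 ± 0.14, and its values also ran from 18.4 to 101 CPM across vehicle libraries. Fkbp1b, an immunophilin that binds ryanodine receptors, appeared as a pair of overlapping entries that share reads on chromosome 12, with differences of 0.45 ± 0.13 and 0.52 ± 0.13. The other gene in the set was Ent1, at 0.41 ± 0.11.

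**Figure D3:**
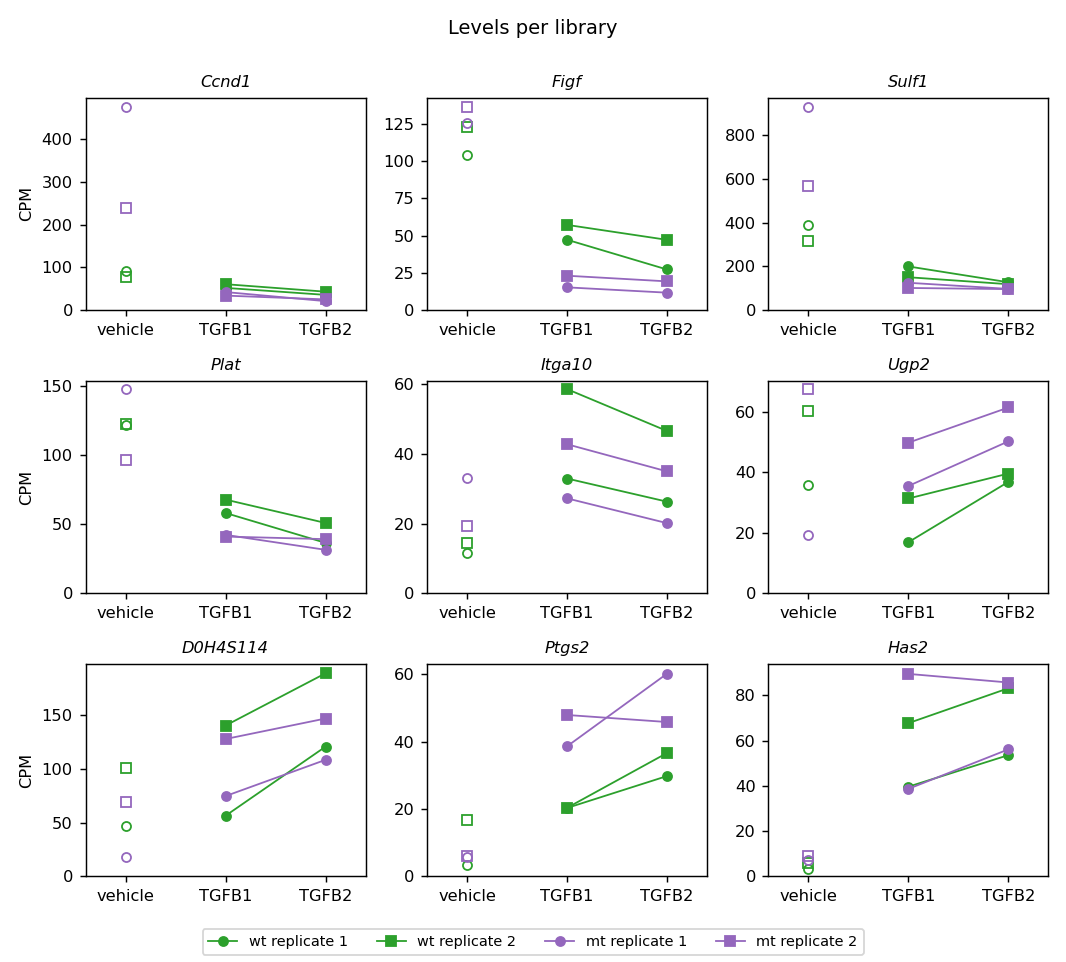
Levels in CPM of 9 genes in each library, with filled symbols for the ligands joined within line and replicate number and open symbols for vehicle; green is wt and purple mt, circles are replicate 1 and squares replicate 2. Ccnd1, Figf, Sulf1, Plat and Itga10 slope down from TGFB1 to TGFB2 in each pair, Ugp2 and D0H4S114 slope up in each pair, and Ptgs2 and Has2 slope up in 3.

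Other gene groups gave few members at an unadjusted p under 0.05, where 2.73% of all genes were higher and 2.03% lower. These counts, like that of all genes, move with the libraries. Of 31 tested NF-kappaB targets, cytokines and chemokines, 2 were higher and 2 lower. Ptgs2, the inducible prostaglandin synthase COX-2, was among the higher, with 20.3, 20.4, 38.6 and 47.9 CPM with TGFB1 and 29.8, 36.6, 60.2 and 45.8 CPM with TGFB2. The difference was 0.49 ± 0.13 (adjusted p 0.894), with the mt replicate 2 pair below 0. Of 36 hyaluronan and remodelling genes, 1 was higher and 4 lower, among the latter the hyaluronan synthase Has3 at -0.54 ± 0.18. Of 24 collagens, 1 was higher and 2 lower: Col8a2, a short-chain collagen, differed by 0.30 ± 0.11, and Col6a2, of collagen VI, by -0.32 ± 0.13. Of 36 growth factors and receptors, 1 was higher and 2 lower, with 8 lower (22.2%) and 2 higher in all 4 pairs, against 6.16% and 6.64% of all genes. Of 29 Wnt pathway genes, 0 were higher and 3 lower, among them the agonist Rspo3 (-0.38 ± 0.14) and the inhibitor Nkd1 (-0.39 ± 0.15). Of 30 mitotic genes, 2 were higher and 0 lower, Cdc20 and Ndc80, while 20 of the 30 lay below 0. Of 29 p53 targets and 25 amino acid synthesis genes, 0 reached an unadjusted p under 0.05 in either direction. Without the wt replicate 1 pair the higher and lower counts were 2 and 0 for NF-kappaB genes and 0 and 3 for hyaluronan genes. They were 2 and 1 for collagens and 1 and 1 for growth factors. Wnt genes had 0 and 1, mitotic genes 1 and 0, and amino acid synthesis genes 1 and 0. Of 16475 genes, 129 were then higher and 157 lower.

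Genes were then read by what TGF-beta did to them, a measure that treats both ligands alike. The 4549 tested genes that rose with TGF-beta had a median ligand difference of 0.02 on the log2 scale, and the 771 of them that rose at least 4-fold one of -0.01. The acyl-CoA synthetase gene Acsbg1, the fibrillar collagen gene Col11a1 and Crabp1, which encodes a carrier of retinoic acid, rose by 8.39, 6.82 and 5.85 on the log2 scale in the pooled response, and differed between the ligands by 0.33 ± 0.15, 0.25 ± 0.25 and 0.30 ± 0.13. The osteoprotegerin gene Tnfrsf11b rose by 5.81 and differed by 0.24 ± 0.18.

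The genes that TGF-beta reduced leaned lower with TGFB2 than with TGFB1, and more so where they had fallen at least 4-fold. Of 4526 genes that fell, 4291 passed the filter of the 8 libraries. Their median was -0.05, with -0.10, -0.04 and -0.09 in the wt replicate 1, wt replicate 2 and mt replicate 1 pairs but 0.02 in the mt replicate 2 pair. Over the 335 that fell at least 4-fold it was -0.15, a TGFB2 level 0.899 times that with TGFB1, and 252 of them (75.2%) lay below 0. In the 4 pairs the medians were -0.18 and -0.05 in wt replicates 1 and 2 and -0.24 and -0.09 in mt replicates 1 and 2, so the mt replicate 2 pair was on the same side as the others. Of the 335, 75 were lower with TGFB2 in all 4 pairs (22.4%) and 6 higher, where 6.16% and 6.64% of all genes tested were. At an unadjusted p under 0.05, 57 were lower (17.0%), against 2.03% of all genes tested, and without the wt replicate 1 pair 35 (10.5%), against 0.953%. None was called, and no set test was run.

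Many of the 335 had few reads, with a median level of 2.90 CPM, and some entries shared reads. Of the 75, 8 were Ugt1a and 11 were Pcdha entries, gene clusters whose members share exons. With overlapping entries merged into 1 locus, 53 of 281 loci were lower in all 4 pairs (18.9%), against 6.13% of all loci, 34 loci were lower at an unadjusted p under 0.05 (12.1%), against 2.00% of all loci, and the median was -0.13. Among the 139 with a mean of at least 5 CPM, 42 were lower in all 4 pairs (30.2%) and 0 higher, against 5.60% of the 12243 genes at that level. Without 1 pair of libraries at a time, the median over the genes that fell at least 4-fold ran from -0.18 to -0.13; without the wt replicate 1 pair, which holds the library with kidney, adrenal and globin transcripts, it was -0.13. Single left-out libraries moved it further, from -0.22 without wt TGFB2 replicate 2 to -0.09 without wt TGFB1 replicate 2.

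Ccnd1, Figf, Sulf1, Atoh8, Col6a2 and Upk3b belong to the 335. Others, named after their values were seen, were Smpd3, a neutral sphingomyelinase, at -0.36 ± 0.11, Slit3, a secreted guidance cue, at -0.27 ± 0.09, Xdh, xanthine dehydrogenase, at -0.35 ± 0.12, and Igfbp4, an insulin-like growth factor binding protein, at -0.23 ± 0.13, each lower in all 4 pairs. Of the 5 most reduced genes averaging 5 CPM or more over the series, 4 had a fitted difference below 0. These were Stc1, a secreted glycoprotein gene, at -0.57 ± 0.43, 1500015O10Rik at -0.49 ± 0.35, Ccbe1 at -0.09 ± 0.38 and the receptor gene Gpr133 at -1.13 ± 0.44. The fifth, the acute-phase gene Saa3, stood at 0.45 ± 0.32. None of the 5 had the same sign in all 4 pairs.

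**Figure D4:**
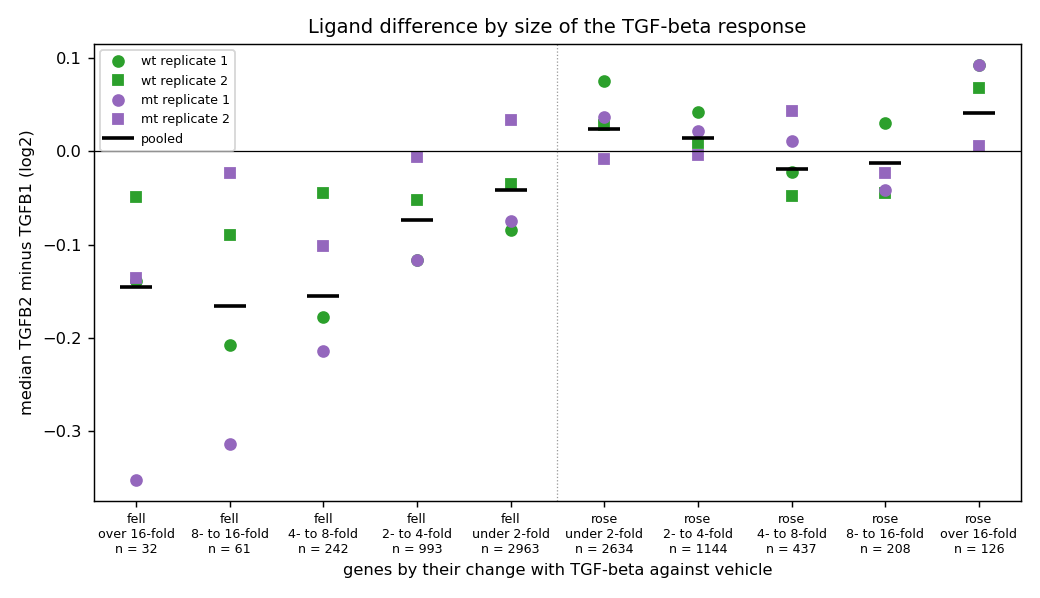
Median TGFB2 minus TGFB1 log2 difference for genes grouped by the size of their pooled response to TGF-beta, from those that fell over 16-fold (left) to those that rose over 16-fold (right); black bars give the fitted difference and symbols the 4 pairs, with the number of genes under each group. Groups that fell at least 4-fold have all 4 pairs below 0. In the group that fell 2- to 4-fold the mt replicate 2 median is close to 0, at -0.007, and it is 0.014 among genes averaging 5 CPM or more. Groups that rose stay within about 0.1 of 0.

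The count of called genes rested on the mt replicate 2 pair. Without it 1681 genes were called, 1083 higher and 598 lower, and without mt TGFB1 replicate 2 alone 147 were called. In the pair left out, 168 of the 1083 (15.5%) were higher and 119 of the 598 (19.9%) lower, with medians of -0.18 and 0.18. Leaving out the wt replicate 1, wt replicate 2 or mt replicate 1 pair gave 0 calls. The replicate 1 libraries of both lines alone gave 2039 calls and the replicate 2 libraries alone gave 0. These subsets were chosen after seeing the data. Leaving out a pair, or taking 1 replicate number alone, leaves 1 library for each ligand in at least 1 line. Such counts of calls rest on fewer libraries than the main count and are less certain. Since no transcript marks the ligand, an exchange of the ligand labels within this pair, which would turn its sign, could not be checked.

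Across these 12243 genes averaging 5 CPM or more, the ligand differences of the wt replicate 1, wt replicate 2 and mt replicate 1 pairs had Pearson correlations of 0.42 to 0.55 with each other and of -0.44 to -0.24 with the mt replicate 2 pair. These are correlations across genes, which are not independent replicates, although the pairs share no library. The same gene-wise differences were related to the difference between the mt vehicle libraries, replicate 2 minus replicate 1, with correlations of 0.61, 0.58 and 0.55 for the first 3 pairs and -0.47 for the mt replicate 2 pair. With the same difference between the wt vehicle libraries they were lower, at 0.26, 0.34, 0.42 and -0.34. Neither vehicle difference contains an added ligand. Replicates of the same ligand also lay further apart than the ligands did. Standard deviations of the log2 difference were between 0.36 and 0.57 for replicates and between 0.19 and 0.34 for ligand pairs. The replicate differences hold a part that the groups share, with correlations of 0.49 to 0.73 between groups. Replicate number was a term of the fit, so these standard deviations are not the spread used in the test.

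Groups of transcripts that do not belong to the TGF-beta pathway differed between the libraries of a pair, and these groups were chosen after seeing the values. The medians of mitochondrial and ribosomal protein genes changed sign in the mt replicate 2 pair, and that of histone genes did not. Mitochondrially encoded transcripts had medians of 0.89, 0.28 and 0.50 in the wt replicate 1, wt replicate 2 and mt replicate 1 pairs and -0.45 in the mt replicate 2 pair. They made up 0.507% of reads with TGFB1 and 0.782% with TGFB2 in wt replicate 1, but 1.04% and 0.810% in mt replicate 2. Ribosomal protein genes had medians of 0.12, 0.18, 0.06 and -0.11 in the same order. Replication-dependent histone genes, whose mature transcripts mostly lack a poly(A) tail, had medians of -0.74, -0.09, -0.35 and -0.17. Of 63 tested, 23 were lower in all 4 pairs (36.5%, against 6.16% of all genes). At an unadjusted p under 0.05, 20 were lower, where 2.03% of all genes were. Without the wt replicate 1 pair that count was 18 (28.6%, against 0.953% of all genes). Without the mt replicate 1 pair it was 9 (14.3%, against 1.05% of all genes). In the same order the fitted median was -0.17 and -0.29, against -0.27 with all pairs. The libraries were made from poly(A) RNA. The part of these transcripts in the differences of other genes was not tested.

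**Figure D5:**
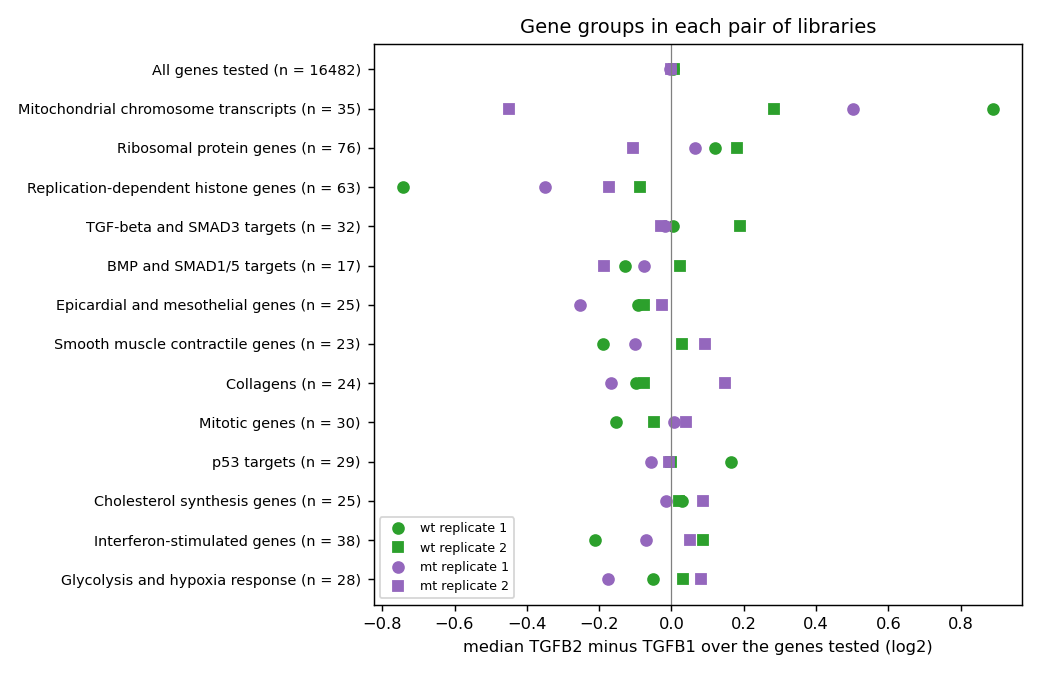
Median TGFB2 minus TGFB1 log2 difference over the tested genes of each group in the 4 pairs of libraries (green wt, purple mt; circles replicate 1, squares replicate 2). Mitochondrial transcripts span from -0.45 in mt replicate 2 to 0.89 in wt replicate 1, while all genes tested sit near 0 in each pair and the pathway groups lie between.

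The lines gave no call when read apart. In wt cells 0 genes were called by edgeR (0%), with 1078 at an unadjusted p under 0.05, and by DESeq2 0, with 772. In mt cells 0 were called by edgeR (0%), with 154 at an unadjusted p under 0.05, and by DESeq2 0, with 50. The test of the difference between the lines called 0 by edgeR (0%), with 255 at an unadjusted p under 0.05, and 0 by DESeq2, with 111. Single left-out libraries moved these numbers from 181 to 1810 in wt cells, from 139 to 1024 in mt cells and from 163 to 1704 for the line difference. Without wt TGFB1 replicate 1 the wt number was 258. The larger number in wt cells does not show a line difference, and the 2 pairs of the mt line had a correlation across genes of -0.41. For Ccnd1 the differences were -0.55 and -0.49 in the wt pairs and -1.01 and -0.44 in the mt pairs.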

How the data were processed

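Counts of reads per gene were deposited by the authors for 30385 entries, in a separate table for each of the replicate numbers 1 and 2. The deposited rpm values, the same reads scaled to 1e+06, were not used. Reads were aligned to mm9 with TopHat or TopHat2, per the submitters' processing notes; versions, counting program, gene models and strandedness are not given in the sources used here, so reads of overlapping and antisense entries cannot be separated. Columns were matched to samples by line, ligand and replicate number in their names; those named NL were taken as the mt line, since the others are named WT, and nameless entries were left out.

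The count test was that of edgeR 4.0.16 under R 4.3.3 (TMM scaling after filterByExpr, robust quasi-likelihood F test; line, replicate number and ligand as terms; 4 residual degrees of freedom) and Benjamini-Hochberg adjustment over all genes tested, threshold 0.05. The SE is the absolute log2 difference over the square root of F. The pooled response was fitted on 16 libraries with group means and replicate number. Levels are TMM-scaled CPM; pair differences use log2 CPM with a prior count of 2. Replicate numbers pair the samples: deviations from group means of same-numbered libraries correlated at 0.49 to 0.73 over 6 pairs of groups. Of the entries tested, 575 share a locus with another. DESeq2 1.42.0, limma 3.58.1, another scaling, no filter, no block and left-out libraries were alternatives, and the fits were tested on simulated data. Library totals were 12990928 to 31813921 reads, and intervals on the fits include replicate spread.

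Named genes were pathway anchors (1 is not reported here), the 6 smallest p in each direction with a mean of at least 5 CPM and 1 sign in all 4 pairs, the 2 smallest p in each list, and the 5 largest rises and falls of the pooled response. Members and lists were chosen with earlier results of these data known.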

Additional observations from a re-analysis of the deposited data

Results flagged for a closer look

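Of 40 groups of 4 pair differences examined, 1 had a pair set apart from the rest. Eng, the co-receptor endoglin, differed by -0.4582 on the log2 scale in the wt replicate 1 pair, and the gap to the nearest other pair was 0.84 of the whole range. Chance alone sets apart about 1 in 20 such groups. The wt TGFB1 library of that pair is the one with kidney, adrenal and globin transcripts, whose part in the value was not tested.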

How the results depend on the processing

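The pooled count of 0 stayed 0 under RLE scaling, no filter, DESeq2, limma-voom, shared loci counted once, all 16 libraries with or without the replicate block, and the 4 pairs as the block. With no replicate block it was 0, with 158 genes at an unadjusted p under 0.05. Leaving out single libraries gave 0 to 147 calls, the highest without mt TGFB1 replicate 2. It rose to 1681 without the mt replicate 2 pair and to 2039 with the replicate 1 libraries alone, both added after seeing the data; the cause was not tested. Within wt cells the count of 0 became 1 with no filter (Hba-a2, a globin gene), and 0 to 1 when single libraries were left out (Mir715, without wt TGFB1 replicate 2). The median of genes that rose with TGF-beta ran from -0.0046 to 0.046 without single libraries and was -0.010 for those changed at least 4-fold, so its sign is not settled. The median of genes that fell ran from -0.079 to -0.022 without single libraries and was -0.15 for those changed at least 4-fold (-0.22 to -0.093 without single libraries). Within mt cells and for the line difference the count stayed 0 under RLE scaling, no filter, no block, DESeq2 and each left-out library. The pooled response called 6336 genes with no replicate block and 9128 by DESeq2. Of 2179 values of the 95 named genes under the alternatives, 71 had the opposite sign, none of a value called in either fit. Ccnd1, with a log2 difference of -0.63 at a mean of 38.95 CPM, was not called by edgeR (adjusted p 0.894). Differences of about this size or smaller, and larger ones in genes of few reads, can go uncalled at this depth and number of libraries.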
